A study of Homo sapiens with 2 samples.

Results

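The 9 interferon-stimulated genes IFI27, IFI6, ISG15, IFITM1, IFITM2, IFITM3, IFIT1, IFIT2 and IFIT3 were followed across 3 ovarian cancer cell lines that had been pooled and profiled cell by cell with long reads. Members were chosen by name: every row of the authors' transcript annotation whose gene name matched a member was taken, which gave 30 transcripts in 9 of the 57110 gene entries. Together they held 39807 of 13052893 estimated counts, or 0.305%. The pool joined the established ovarian cancer lines IGROV1, SK-OV-3 and COV504 in equal parts, with no treatment or edit named in the labels, and 1 library each was read on an Illumina instrument and on a nanopore PromethION instrument. All expression values below come from the single PromethION library, so no value has a replicate and no test between lines was possible. The Illumina library served only for its list of 2462 barcodes, all of which were also in the PromethION list.

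Interferons are secreted proteins made by cells that sense viral or misplaced nucleic acid. They bind paired receptors whose JAK kinases start a signal to the nucleus, where genes that carry an interferon-stimulated response element are switched on. Many tumour lines keep part of this programme on without added interferon. Often only few cells make the ligand, and the response varies from cell to cell.

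Lines were assigned by genes other than the members. A barcode with at least 1000 counts was given to a line when that line's marker genes held at least 75% of all marker counts. ERBB2, NNMT, TSPAN1 and DHRS2 marked the ERBB2-high line, RARRES2 and TMEM100 the RARRES2-high line, and FOLR1, CLDN3, DEFB1 and CXCL14 the FOLR1-high line. This gave 648 ERBB2-high cells with a median of 4953 counts, 473 RARRES2-high cells with 6262 and 765 FOLR1-high cells with 5289. A further 243 barcodes were mixed and 333 had under 1000 counts. Of the SK-OV-3 markers that the rule did not use, GRB7, MIEN1, STARD3 and PGAP3 were highest in the ERBB2-high line; ERBB2 helped define it and is no check. CDKN2A, listed as absent or lowest in SK-OV-3, had 1 count there, 0 in the RARRES2-high and 88 in the FOLR1-high line. By contrast, the IGROV1 markers that the rule did not use, PAX8, CDH1 and ESRP1, did not point to 1 class, so the other classes keep the names of their genes. Leukocyte, endothelial and red cell markers, 8 genes measured on their own, summed to 6, 12 and 12 counts in the ERBB2-high, RARRES2-high and FOLR1-high lines, and CD3E and LYZ had 0 counts in each. Mitochondrial genes held 2.93%, 3.11% and 7.07% of counts and ribosomal protein genes 11.6%, 14.1% and 25.6%, in the same order. Near the 75% limit, the summed members reached 3930 CPM (counts scaled to a total of 1000000 per group of cells) in the 48 RARRES2-high barcodes just inside it and 3640 CPM in the 25 just outside. The same pair of values was 2131 and 1860 CPM for the ERBB2-high class and 1891 and 2868 CPM for the FOLR1-high class, the last from 16 and 5 barcodes.

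The DNA letters around the RefSeq starts of these genes show what most of the set shares. The motif GAAANNGAAA, the core of the response element, was searched on both strands of RefSeq promoters (GRCh38.p14, 250 bases before to 50 after the start), and overlapping matches were counted separately. RefSeq's table matched 7 of the 9 members by symbol; IFITM2 and IFIT2 had no match. All 7 matched members held the motif, against 3.57% of the 35116 promoters in the table. Of 109 promoters of the wider interferon pathway list described below, 41 held it. One window of 30 bases is shown per promoter, with 1 for both IFI27 promoters, which overlap, 5′ to 3′ on the gene's strand, with the motif in capitals, which reads TTTCNNTTTC where it lies on the opposite strand.
IFI27, chr14:94110618-94110647, plus strand: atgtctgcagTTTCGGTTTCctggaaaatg
IFI6, chr1:27672329-27672358, minus strand: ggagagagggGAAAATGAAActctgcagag
ISG15, chr1:1013380-1013409, plus strand: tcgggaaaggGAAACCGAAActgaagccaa
IFITM1, chr11:314024-314053, plus strand: acacttctgaGAAACTGAAAcgacagggga
IFITM3, chr11:320876-320905, minus strand: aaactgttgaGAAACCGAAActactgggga
IFIT1, chr10:89392510-89392539, plus strand: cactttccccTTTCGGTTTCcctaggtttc
IFIT3, first promoter, chr10:89327865-89327894, plus strand: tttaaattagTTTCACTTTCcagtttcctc
IFIT3, second promoter, chr10:89332468-89332497, plus strand: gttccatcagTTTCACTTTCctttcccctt
The motif began 108 bases upstream of the first of the 2 starts of IFI27, and 107 and 103 bases upstream of those of ISG15 and IFIT1, and closer, 35 and 6 bases upstream, in IFITM3 and IFITM1. These starts are those of RefSeq, and GENCODE starts can differ. In GENCODE the IFITM3 window lay within exon 1 of ENST00000399808 (chr11:320565-321050). The IFITM1 window lay within exon 1 of ENST00000408968 (chr11:313853-314356). IFI6 held 3 matches and each other promoter 2. A match describes letters and does not show that a factor binds there.

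The RARRES2-high line had the largest share of the set's transcripts, 48.7% of the member counts in the 3 lines. The summed members reached 4939 CPM there, 2076 CPM in the ERBB2-high line and 2305 CPM in the FOLR1-high line. IFI27, IFI6, ISG15, IFITM1, IFIT1, IFIT2 and IFIT3, 7 of the 9 members, were highest in the RARRES2-high line, while IFITM2 was lowest in it and IFITM3 was nearly level across lines. A member was called when its CPM, with 10 CPM added to both lines, differed at least 2-fold. Against the ERBB2-high line, 7 members were called higher in the RARRES2-high line and 1 lower, where 7.69% and 10.1% of the 10202 gene entries with at least 50 counts were called in those directions. Against the FOLR1-high line, 6 were called higher and 1 lower, where 12.5% and 6.47% of entries were called. The median member log2 ratio was 2.26 over the ERBB2-high and 2.31 over the FOLR1-high line, and that of all entries was -0.15 and 0.12. Without 1 barcode rich in IFIT transcripts, described below, the member medians were 1.96 and 1.45. With 1 CPM added in place of 10 they were 3.30 and 2.61, and with lines held to a marker share of 90% they were 2.29 and 1.71. Taking each gene's highest and lowest line, 7 members differed at least 2-fold with the RARRES2-high line highest and 1, IFITM2, with the FOLR1-high line highest, where 12.6% and 6.91% of entries did. Both comparisons share the RARRES2-high cells and are not independent of each other. Between the remaining lines, ISG15 and IFITM1 were called higher in the FOLR1-high line and IFI27 lower, where 4.99% and 12.7% of entries were called, and the other 6 members fell between the limits.

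**Figure D1:**
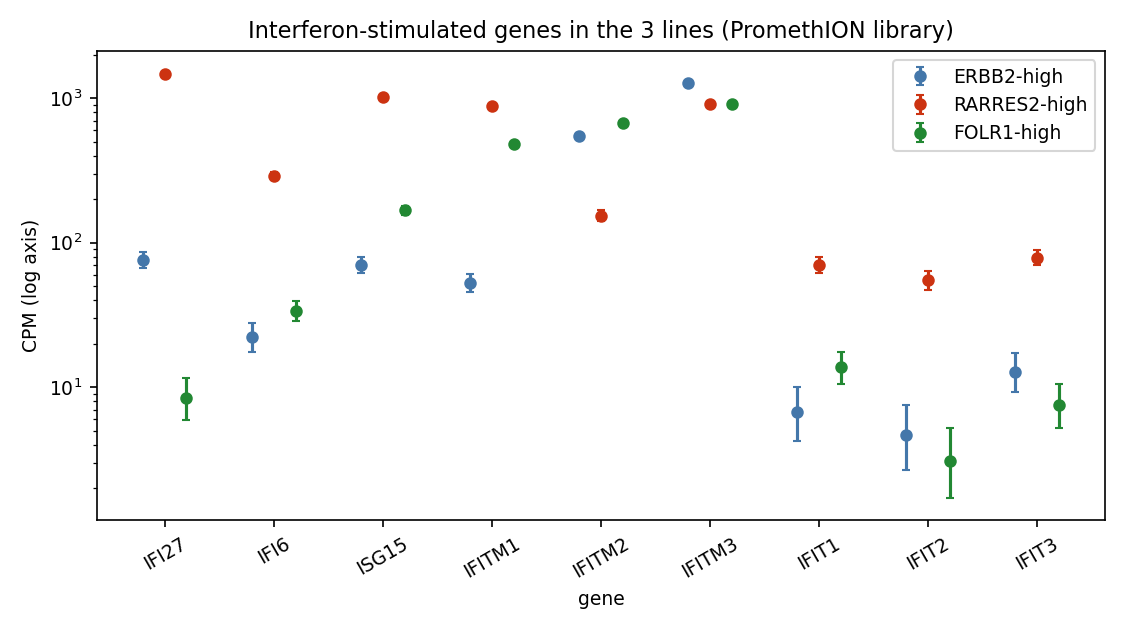
CPM of each member (log axis) in the 3 lines of the PromethION library; bars are exact Poisson 95% intervals and cover counting error only. IFI27 ran from 8.42 CPM in the FOLR1-high line to 1477 CPM in the RARRES2-high line, whereas IFITM3 stayed between 906 and 1284 CPM.

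IFI27, which encodes a small mitochondrial membrane protein and spans chr14:94110733-94116698 (GRCh38, plus strand, the authors' annotation), differed most. Its level was 1477 CPM (95% interval 1436 to 1518) in the RARRES2-high line, 76.1 CPM (67.2 to 85.9) in the ERBB2-high line and 8.42 CPM (5.96 to 11.6) in the FOLR1-high line. The 3 intervals were far apart. The RARRES2-high level was 19.4-fold (17.1 to 22.1) the ERBB2-high level and 175-fold (128 to 248) the FOLR1-high level, ranks 14 and 2 of 10202 entries. A count of IFI27 was seen in 96.4% of RARRES2-high cells, 25.5% of ERBB2-high cells and 1.44% of FOLR1-high cells (exact interval 0.720 to 2.56%). After each cell was thinned to 2000 counts, these shares were 85.3%, 13.0% and 0.682%. Of the 38 IFI27 counts in the FOLR1-high line, 21 lay in 2 of the 11 cells with any, and without them the level was 3.77 CPM. With Scrublet doublets removed, the log2 ratio of the RARRES2-high over the FOLR1-high line, 10 CPM added, was 6.50 in place of 6.34. Free RNA of the pool and doublets can give such counts, and their part in the FOLR1-high value was not tested.

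IFI6, a relative of IFI27 that limits cell death in infected cells (chr1:27666061-27672218, minus strand), was at 290 CPM in the RARRES2-high line, 33.7 CPM in the FOLR1-high line and 22.1 CPM in the ERBB2-high line. The RARRES2-high level was 13.2-fold (10.4 to 16.8) and 8.63-fold (7.26 to 10.3) that of the ERBB2-high and FOLR1-high lines. IFI6 was seen in 64.9%, 16.9% and 10.5% of RARRES2-high, FOLR1-high and ERBB2-high cells, so the order of shares was the order of levels. ISG15, a ubiquitin-like protein that is attached to other proteins (chr1:1001138-1014541, plus strand), was at 1028 CPM in the RARRES2-high line, 167 CPM in the FOLR1-high line and 70.6 CPM in the ERBB2-high line. Its RARRES2-high level was 14.6-fold (12.8 to 16.7) the ERBB2-high and 6.14-fold (5.67 to 6.65) the FOLR1-high level. ISG15 was seen in 92.0% of RARRES2-high and 51.8% of FOLR1-high cells and in 188 of the 648 ERBB2-high cells.

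The IFITM genes encode membrane proteins that hinder virus entry and lie side by side on chromosome 11, yet their order over the lines differed. IFITM1 (chr11:313506-315272, plus strand) was at 880 CPM (RARRES2-high), 479 CPM (FOLR1-high) and 52.9 CPM (ERBB2-high). The FOLR1-high line was 9.06-fold (7.79 to 10.6) above the ERBB2-high line for IFITM1, whereas the RARRES2-high line was 1.84-fold (1.74 to 1.94) above the FOLR1-high line, under the 2-fold limit. IFITM2 (chr11:307631-309395, plus strand) went the other way, at 673 CPM (FOLR1-high), 546 CPM (ERBB2-high) and 154 CPM (RARRES2-high). The RARRES2-high level of IFITM2 was 0.283-fold (0.256 to 0.312) the ERBB2-high and 0.229-fold (0.208 to 0.252) the FOLR1-high level. IFITM3 (chr11:319669-327537, minus strand) was at 1284 CPM in the ERBB2-high, 919 CPM in the FOLR1-high and 906 CPM in the RARRES2-high line, and the last pair could not be told apart by counting (0.986-fold, 0.941 to 1.03). IFITM3 was seen in 96.1%, 88.9% and 97.5% of ERBB2-high, FOLR1-high and RARRES2-high cells, and IFITM2 in 86.4%, 82.6% and 54.5%. After each cell was thinned to 2000 counts, the IFITM3 shares were 86.14%, 73.53% and 79.01% in the same order, highest in the ERBB2-high line. The thinned IFITM2 shares were 63.37%, 63.98% and 25.28%, so the order of lines by share depended on depth.

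Reads of these 3 genes can be confused, since the coding sequences of IFITM2 (396 bases) and IFITM3 (399 bases) were identical at 93.2% of aligned positions (372 identical, 24 mismatched and 3 gapped). A run of 99 bases, read from GENCODE transcripts, is shown because it is the same in the coding sequence of all 3 genes and so cannot assign a read.
IFITM1, IFITM2 and IFITM3, shared coding run: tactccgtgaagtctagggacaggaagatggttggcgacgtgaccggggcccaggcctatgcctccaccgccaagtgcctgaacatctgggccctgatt
The share of IFITM2 reads that may come from IFITM3, or the reverse, was not tested, and the IFITM values are uncertain to that extent.

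IFIT1, IFIT2 and IFIT3 encode related antiviral proteins and form a cluster on chromosome 10 (chr10:89392546-89406486, chr10:89283694-89309276 and chr10:89327894-89340971, all plus strand). In the RARRES2-high line they were at 69.9, 54.8 and 78.7 CPM. In the ERBB2-high line the values were 6.68, 4.65 and 12.8 CPM and in the FOLR1-high line 13.7, 3.10 and 7.53 CPM. The RARRES2-high line stood 10.5-fold (6.80 to 16.8), 11.8-fold (7.07 to 21.0) and 6.16-fold (4.47 to 8.68) above the ERBB2-high line for IFIT1, IFIT2 and IFIT3. The IFIT2 entry also held an overlapping gene, AL353751.1, whose transcripts gave 11 of the 16 ERBB2-high, 2 of the 14 FOLR1-high and 5 of the 185 RARRES2-high counts. The transcripts of IFIT2 alone had 5, 12 and 180 counts in that order, or 1.45, 2.66 and 53.3 CPM. On these the RARRES2-high line was 36.7-fold (15.4 to 114) above the ERBB2-high line, and the interval of its ratio to the FOLR1-high line ran from 11.2 to 39.5. Without the 1 barcode that held most IFIT2 counts, described below, these ratios were 14.3-fold (5.85 to 45.5) and 7.82-fold (4.21 to 15.9). Between the FOLR1-high and ERBB2-high lines the IFIT genes differed less and not in 1 direction. IFIT1 was 2.06-fold (1.26 to 3.48) the ERBB2-high level in the FOLR1-high line and IFIT3 0.589-fold (0.365 to 0.943), and neither was called. IFIT2 did not differ detectably between them at this depth, at 0.667-fold (0.302 to 1.46) for the joint entry and 1.83-fold (0.600 to 6.63) for IFIT2 alone. Any of the 3 IFIT genes was seen in 36.8% of RARRES2-high cells, 11.1% of ERBB2-high and 11.9% of FOLR1-high cells. In the RARRES2-high line IFIT1 was seen in 21.6% of cells, IFIT3 in 22.4% and IFIT2 in 7.40%. With a mean of 0.391 to 0.562 counts per cell, a cell at 0 cannot be taken as a cell that lacks the transcript. In this line, 1 barcode held 59.5% of the IFIT2 counts.

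That barcode was 1 of 2 among 2462 with counts of IFNB1, the gene of interferon beta. It belonged to the RARRES2-high line, with 12 marker counts, 83.3% of them for that line, and held 11277 counts. Within it IFNB1 had 102 counts and IFNL1, an interferon lambda gene, 128. Of the members it held 121 counts of ISG15, 110 of IFIT2, 93 of IFIT3, 51 of IFIT1, 36 of IFI27, 19 of IFITM3, 12 of IFITM1, 8 of IFI6 and 0 of IFITM2. The chemokine genes CCL5 and CXCL10 had 79 and 43 counts in it, against 8 and 1 in the other 472 cells of the line together. Among the 165 gene entries with at least 10 counts in this barcode, IFNL1, IFNB1, CCL5, CXCL10 and IFIT2 had the 5 largest ratios to the rest of the line, IFIT3 ranked 9 and IFIT1 ranked 12. The barcode was picked out by its IFNB1 and IFIT2 counts, so the high ranks of IFNB1 and IFIT2 follow from that choice. It was not a Scrublet doublet, and 67 RARRES2-high cells were deeper.

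The other IFNB1 barcode had 4067 counts, of which IFNB1 held 53 and IFNL1 42. It fell in the mixed class, with 3 marker counts, 66.7% of them for the RARRES2-high line, and was not a Scrublet doublet either. Its member counts were 40 for IFIT3, 35 for IFIT2, 27 for ISG15, 17 for IFIT1, 10 for IFI27, 8 for IFITM1, 6 for IFITM3, 4 for IFI6 and 1 for IFITM2. The barcode sequences differed at 13 of 16 positions. Scaled to 10000 counts, the summed IFIT genes were at 225 and 226 in the 2 barcodes, while the highest RARRES2-high cell without IFNB1 counts was at 46.1 and the next at 29.8. The highest ERBB2-high and FOLR1-high cells were at 7.87 and 4.98. The cell at 46.1 held 1 count of IFNL1, 56 of ISG15 and 23 of IFIT2. Apart from these 3 barcodes, counts of the 12 ligand genes searched were limited to single counts of IFNE in 4 cells.

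Without the RARRES2-high IFNB1 barcode, IFIT2 fell from 54.8 to 22.3 CPM (17.5 to 27.9), IFIT3 from 78.7 to 51.4 CPM and IFIT1 from 69.9 to 54.9 CPM. ISG15 was then at 996 CPM and IFI27 at 1471 CPM. The ratio of IFIT2 after 10 CPM were added went from 4.42 to 2.20 over the ERBB2-high line and from 4.94 to 2.46 over the FOLR1-high line. For the transcripts of IFIT2 alone the ratios on this scale went from 5.53 to 2.69 and from 5.0 to 2.43. All 7 and 6 higher calls were still made without this barcode.

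**Figure D2:**
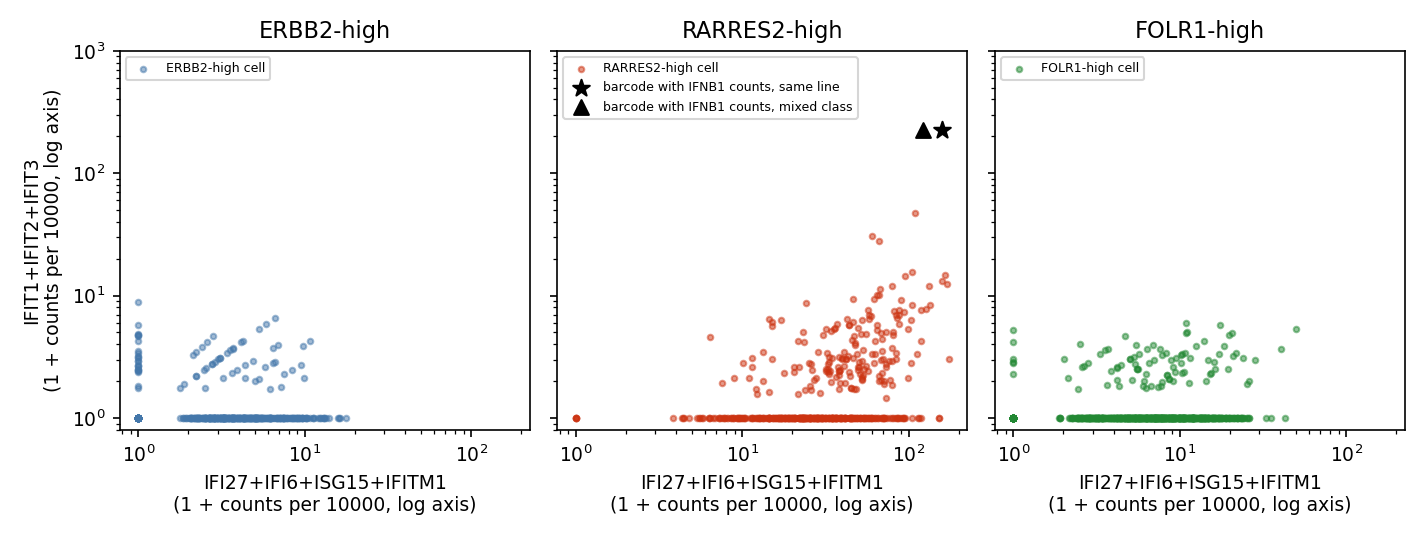
Each point is a cell of the ERBB2-high, RARRES2-high or FOLR1-high line, with the summed counts of IFI27, IFI6, ISG15 and IFITM1 (x) and of IFIT1, IFIT2 and IFIT3 (y), both as 1 plus counts per 10000 on log axes; the black star and triangle are the barcodes with IFNB1 counts. The star and triangle lie at 225 and 226 IFIT counts per 10000, above every other cell plotted, while on the x axis they lie within the upper range of the RARRES2-high cells.

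The summed IFI27, IFI6, ISG15 and IFITM1 counts varied widely but without such a gap. In RARRES2-high cells without IFNB1 they had a median of 32.0 per 10000 counts, with 9.43 at the 10th and 78.8 at the 90th percentile and a maximum of 173. The medians were 1.52 in ERBB2-high and 5.51 in FOLR1-high cells. Only 4 of the 473 RARRES2-high cells held no count of these 4 genes, against 274 of 648 ERBB2-high and 108 of 765 FOLR1-high cells.

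Cell-to-cell spread was measured as overdispersion, the squared relative variation beyond what counting at each cell's depth gives, for genes with a mean of at least 0.2 counts per cell in the line. In the RARRES2-high line, 4 members passed a limit of 1, where 6.79% of 4567 entries did: IFIT2 (129), IFIT3 (43.6), IFIT1 (17.4) and ISG15 (1.21). Without the IFNB1 barcode IFIT3 was at 3.88, IFIT1 at 2.74 and ISG15 at 0.92. IFIT2 was still at 36.6 but no longer had a mean of 0.2 counts per cell. IFI27 in the RARRES2-high line had an overdispersion of 0.302, rank 1599 of 4567 entries whose median was 0.204, and counts that ran from a median of 8 to a maximum of 63 per cell. In the ERBB2-high line, 2 members passed, where 5.23% of 4131 entries did, namely IFI27 (1.55) and IFITM1 (1.39). In the FOLR1-high line none of the members with a mean of 0.2 passed, where 5.81% of 3476 entries did, and ISG15 and IFITM1 were at 0.791 and 0.773. IFITM3 stayed between 0.227 and 0.385 in the 3 lines.

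The members also differed in which of them varied together. Pearson r was taken over the cells of a line on log counts scaled to the median depth, as a description, since all cells share 1 library. Over the 36 pairs of members the median r was 0.270 in the RARRES2-high line (473 cells), 0.025 in the ERBB2-high line (648 cells) and 0.052 in the FOLR1-high line (765 cells). In the RARRES2-high line IFI27, IFI6, ISG15 and IFITM1 formed a block, with r from 0.468 for IFI6 and IFITM1 to 0.560 for IFI27 and ISG15. IFITM2 stood outside it, at 0.229 with IFITM1, 0.168 with IFI6, 0.121 with IFI27 and 0.095 with ISG15. The IFIT genes had r of 0.358 to 0.474 with each other there, but 0.142 to 0.318 by ranks. Ranks change both the weight of single barcodes and that of the many cells at 0. The part of the IFNB1 barcode in these pairs was not tested. In the FOLR1-high line the block was another one: IFITM1, IFITM2 and IFITM3 had r of 0.453 to 0.528, while IFI27 had -0.127 with IFITM2. IFITM2 and IFITM3 gave the highest r of the ERBB2-high line, 0.321. Reads shared between the IFITM genes would raise these values, and their part was not tested. Counts were few for some members, such as 23 of IFIT1 in the whole ERBB2-high line, and the part of low counts in r was not tested.

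**Figure D3:**
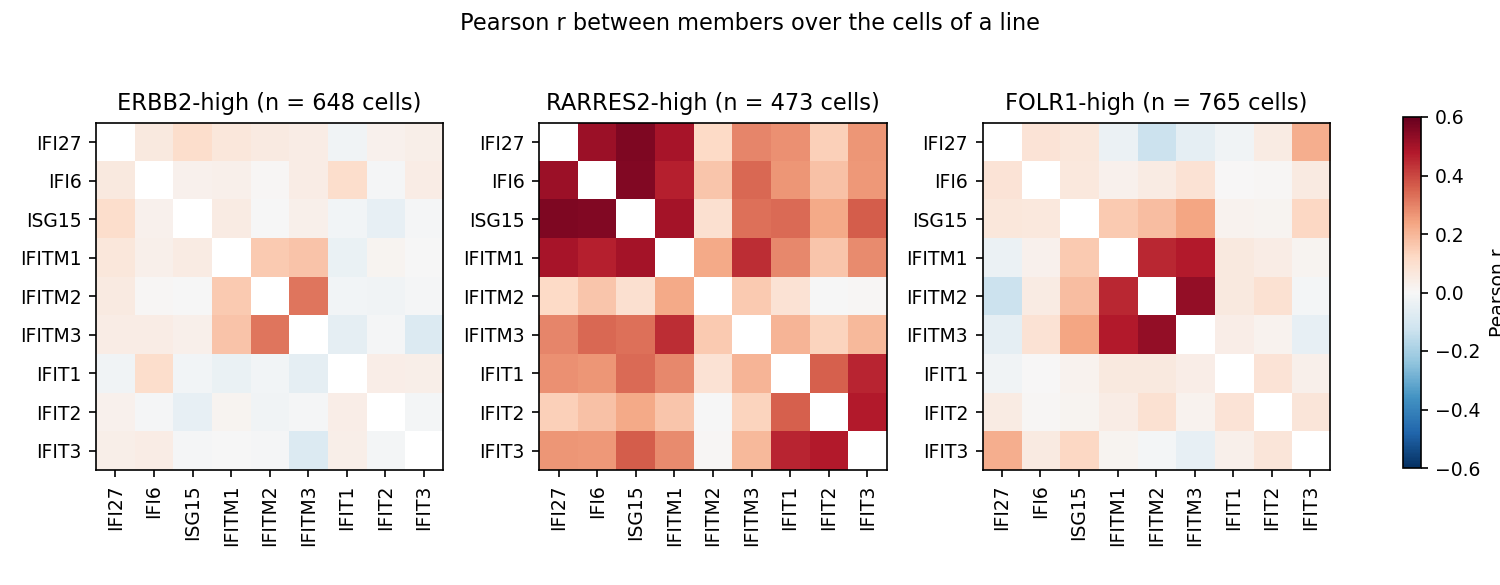
Pearson r between each pair of members over the cells of each line (colour scale from -0.6 to 0.6; the diagonal is blank). The RARRES2-high panel shows a block of IFI27, IFI6, ISG15 and IFITM1 with r up to 0.560, and the FOLR1-high panel a block of the IFITM genes with r up to 0.528.

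The genes outside the set that varied most like its sum are listed by line. The sums are not alike, since the IFITM genes made 90.7% of the member counts in the ERBB2-high and 89.9% in the FOLR1-high line but 39.3% in the RARRES2-high line. In the RARRES2-high line the 5 nearest were BST2 (r = 0.429), which tethers virus particles to the cell, B2M (0.414), the light chain of HLA class I, LY6E (0.413), UBE2L6 (0.401), the enzyme that passes ISG15 to its targets, and MX1 (0.396), an antiviral GTPase. Of the nearest 20 genes, 12 were in the interferon pathway list, as were 71 of all 6674 entries compared (1.06%). In the FOLR1-high line the nearest were the joint FXYD2 and FXYD6 entry (0.534), CD24 (0.523), TMSB4X (0.516), TMSB10 (0.499) and S100A11 (0.484), and 0 of the nearest 20 were in the list, which held 31 of the 5567 entries compared (0.557%). In the ERBB2-high line they were SLPI (0.340), B2M (0.330), TPT1 (0.307), LGALS3 (0.284) and AKR1C1 (0.254), with 2 of the nearest 20 and 44 of all 6334 entries (0.695%) in the list. An r of at least 0.3 was reached by 0.195% of non-member entries in the RARRES2-high, 0.808% in the FOLR1-high and 0.0474% in the ERBB2-high line. Genes that assigned the lines were also among the nearest 20. RARRES2 ranked 12 in the RARRES2-high line (0.310), TSPAN1 ranked 7 in the ERBB2-high line (0.244) and DEFB1 ranked 13 in the FOLR1-high line (0.417). The part of line purity in the r values, those between members included, was not tested.

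The FOLR1-high line held a split across which 4 members differed in the same direction. Its cells were divided by CXCL14, a chemokine gene, against DEFB1, a defensin gene, and CD44, an adhesion receptor gene. In 251 cells CXCL14 held at least 75% of these counts and in 302 cells at most 25%. CXCL14 and DEFB1 were also among the genes that assigned the line. IFITM3 was at 409 CPM in the CXCL14 state and 1267 CPM in the DEFB1-CD44 state, 3.10-fold higher (2.82 to 3.41). ISG15 went from 79.2 to 223 CPM (2.81-fold, 2.27 to 3.51), IFITM2 from 348 to 897 CPM (2.57-fold, 2.32 to 2.86) and IFITM1 from 259 to 598 CPM (2.31-fold, 2.05 to 2.62). These 4 were called higher among the 5 members with at least 50 counts, where 4.01% of 5982 entries were. Reads of IFITM1, IFITM2 and IFITM3 can be confused, so their calls may not be independent of each other. IFI6 was at 31.7 and 38.9 CPM (1.23-fold, 0.834 to 1.83). IFI27 had 15 and 19 counts in the CXCL14 and DEFB1-CD44 states and the IFIT genes under 50 counts each over both, too few to be called. Median depth was 4939 and 6147 counts and ribosomal protein genes held 28.2% and 24.2% of counts in the CXCL14 and DEFB1-CD44 states. Their part in the difference was not tested.

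**Figure D4:**
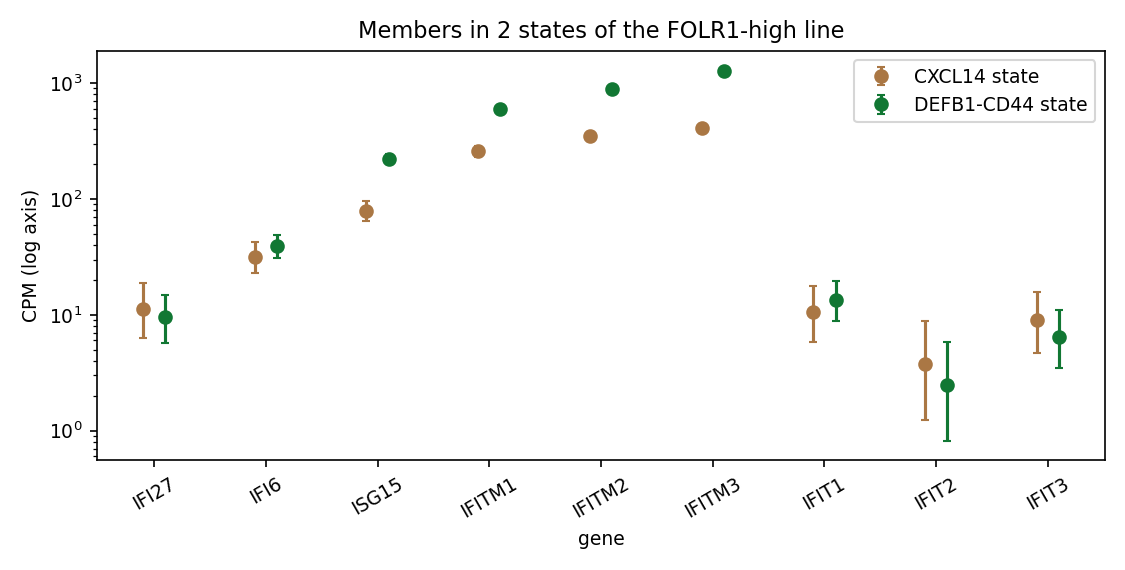
CPM of each member (log axis) in the CXCL14 state (251 cells) and the DEFB1-CD44 state (302 cells) of the FOLR1-high line, with exact Poisson 95% intervals. ISG15 and the IFITM genes lie higher in the DEFB1-CD44 state, IFITM3 at 1267 against 409 CPM, while the intervals of the other members overlap.

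Long reads also gave the transcripts of each member. Of IFI27 counts, ENST00000621160 held 67.2% (61.1 to 72.8) in the ERBB2-high and 60.1% (58.7 to 61.4) in the RARRES2-high line. ENST00000618863, which lacks exon 2 of that transcript, held 25.6% (20.4 to 31.3) and 38.1% (36.8 to 39.5). In cells with 1 to 5 IFI27 counts, which held 253 of the 262 ERBB2-high counts, the share was 25.7% (20.4 to 31.5) and 39.4% (34.8 to 44.1). In cells with a single count it was 20.6% of 107 counts and 36.0% of 25 counts, and the exact intervals overlapped. Over estimates that came as whole counts alone it was 32.8% and 56.5%, and ENST00000621160 then held 64.4% and 41.5%. Which transcript led in the RARRES2-high line therefore depended on how reads were shared between transcripts. The skipped exon has 149 bases (chr14:94111625-94111773) and holds the start codon of ENST00000621160, while the annotated coding sequence of ENST00000618863 starts downstream at position 94115789. Its coding part is printed, with the start codon in capitals, because it is what the shorter transcript lacks.
IFI27 exon 2, coding part, chr14:94111683-94111773, plus strand: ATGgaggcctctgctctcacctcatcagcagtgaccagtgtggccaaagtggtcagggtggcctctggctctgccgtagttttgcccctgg

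The remaining members varied in how far their transcripts were resolved. ISG15 was read as ENST00000379389 (98.4 to 99.9% over the lines) and IFITM3 as ENST00000399808 (99.7 to 99.9%). IFI6 was read as ENST00000361157 in 80.3% of ERBB2-high, 84.2% of RARRES2-high and 84.9% of FOLR1-high counts. IFIT1 was read as ENST00000371804 in 93.6% of RARRES2-high counts. IFIT2 counts in the RARRES2-high line were 81.6% ENST00000371826, but 59.9% without the IFNB1 barcode. Over whole estimates alone the share was 28.6%, from only 4 of 14 counts. IFIT3 used both of its first exons in the RARRES2-high line: ENST00000371818, which starts at the first promoter shown above, held 70.7% (64.8 to 76.1) and ENST00000371811, which starts at the second, 29.3%. Without the IFNB1 barcode, which held 35.0% of these counts, ENST00000371818 was at 57.2% (49.5 to 64.7), and over whole estimates alone it was at 60%. IFIT3 had too few counts in the other lines, 44 and 34, to be given a share. IFITM1 was divided between ENST00000408968 (58.9% in the RARRES2-high line) and ENST00000328221 (41.0%), but its whole estimates split evenly, so these transcripts were not told apart. The same held for the 3 main transcripts of IFITM2.

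The rest of the interferon pathway was read from a list of 104 genes in 103 entries, of which 80 entries had at least 50 counts over the 3 lines. Against the ERBB2-high line, 26 entries were called higher in the RARRES2-high line and 2 lower, beside 7.69% and 10.1% of all entries. Against the FOLR1-high line, 44 were called higher and 1 lower, beside 12.5% and 6.47%. The higher entries in both comparisons include IFNB1 and IFNL1, whose 102 and 129 RARRES2-high counts came down to 0 and 1 without the IFNB1 barcode. Without that barcode 23 were called higher and 3 lower than in the ERBB2-high line, and 40 higher and 1 lower than in the FOLR1-high line. Between the FOLR1-high and ERBB2-high lines, 3 were called higher and 22 lower in the FOLR1-high line, beside 4.99% and 12.7%. Named after their values were seen, the 2 lower in the first comparison were STAT3 and the joint entry of IFITM10 and CTSD, the 1 lower in the second was BST2, and the 3 higher in the last were BST2, SOCS3 and ZC3HAV1. Of the 54 entries that differed at least 2-fold between their highest and lowest line, 42 were highest in the RARRES2-high line, and 34.3% of all entries differed by that much, 12.6% with the RARRES2-high line highest. Some of the 42 reached 50 counts only through the RARRES2-high cells. OAS1, for example, had 154 counts there and 2 in each other line. The list was also chosen with earlier results of these data known, so the tally is a description and no test. The FOLR1-high line was the lowest for 58 of the 80 entries and for 47.1% of all entries.

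Ligands other than IFNB1 and IFNL1 were nearly absent: the IFNA genes of the list, IFNG and IFNK had 0 counts in every line. Of the receptor genes, IFNAR1 was at 41.3, 36.1 and 23.7 CPM in the ERBB2-high, RARRES2-high and FOLR1-high lines and was not called. The joint entry of IFNAR2 and IL10RB was at 47.1, 35.5 and 19.9 CPM and IFNGR2 at 17.4, 14.2 and 7.31 CPM in the same order, and neither was called. IFNLR1, the receptor for interferon lambda, had 2, 8 and 8 counts, too few to be called. IFNGR1 was at 49.4, 27.2 and 11.1 CPM in the same order and was called between the first and the last. JAK1, the kinase that interferon receptors share, was at 90.6 CPM in the ERBB2-high and 49.1 CPM in the RARRES2-high line but at 2.66 CPM in the FOLR1-high line. IRF7, a transcription factor that amplifies interferon genes, was at 58.3 CPM in the RARRES2-high line, 11.9 CPM in the ERBB2-high and 3.77 CPM in the FOLR1-high line. MB21D1, the DNA sensor cGAS, was at 40.3 CPM in the RARRES2-high line and at 0.290 and 1.11 CPM in the ERBB2-high and FOLR1-high lines.

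The antiviral genes OAS1, OAS2 and MX1 had a pattern like that of IFI27, at 45.6, 43.5 and 66.3 CPM in the RARRES2-high line and at most 4.07 CPM elsewhere. OAS3 was at 92.7 CPM and ISG20, a nuclease gene, at 194 CPM in the RARRES2-high line, against 5.23 and 13.4 CPM in the ERBB2-high line. A further group was shared by the ERBB2-high and RARRES2-high lines and low in the FOLR1-high line. The group was picked from the 20 entries with the largest ratios. The immunoproteasome genes PSMB8 and PSMB9 belonged to it, at 230 and 84.0 CPM (ERBB2-high), 165 and 181 CPM (RARRES2-high) and 4.21 and 6.64 CPM (FOLR1-high). UBE2L6 was at 53.5, 115 and 1.11 CPM, IFI16, a DNA sensor, at 60.1, 86.4 and 1.33 CPM, and B2M at 2843, 3895 and 767 CPM in the same order. IFI27L2 was at 70.6, 69.3 and 5.32 CPM. The other antigen presentation genes with at least 50 counts did not all share this pattern. PSME1 was highest in the FOLR1-high line, at 183, 145 and 190 CPM in the same order. PSME2, at 129, 276 and 199 CPM, was lowest in the ERBB2-high line. TAP1, TAP2, TAPBP and PSMB10 were lowest in the FOLR1-high line, the joint entry of PSMB10 at 70.01, 49.73 and 29.68 CPM. HERC5, the ligase for ISG15, was at 55.5 CPM in the ERBB2-high and 0.443 CPM in the FOLR1-high line. Its RARRES2-high level was 24.3 CPM, but 48 of the 82 counts lay in the IFNB1 barcode and the other 472 cells were at 10.1 CPM. SAMD9, SAMD9L, PLSCR1, EPSTI1 and PML completed the 20 entries with the largest ratios. Of these 20, 16 were highest in the RARRES2-high and 4 in the ERBB2-high line, and 18 were lowest in the FOLR1-high line.

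**Figure D5:**
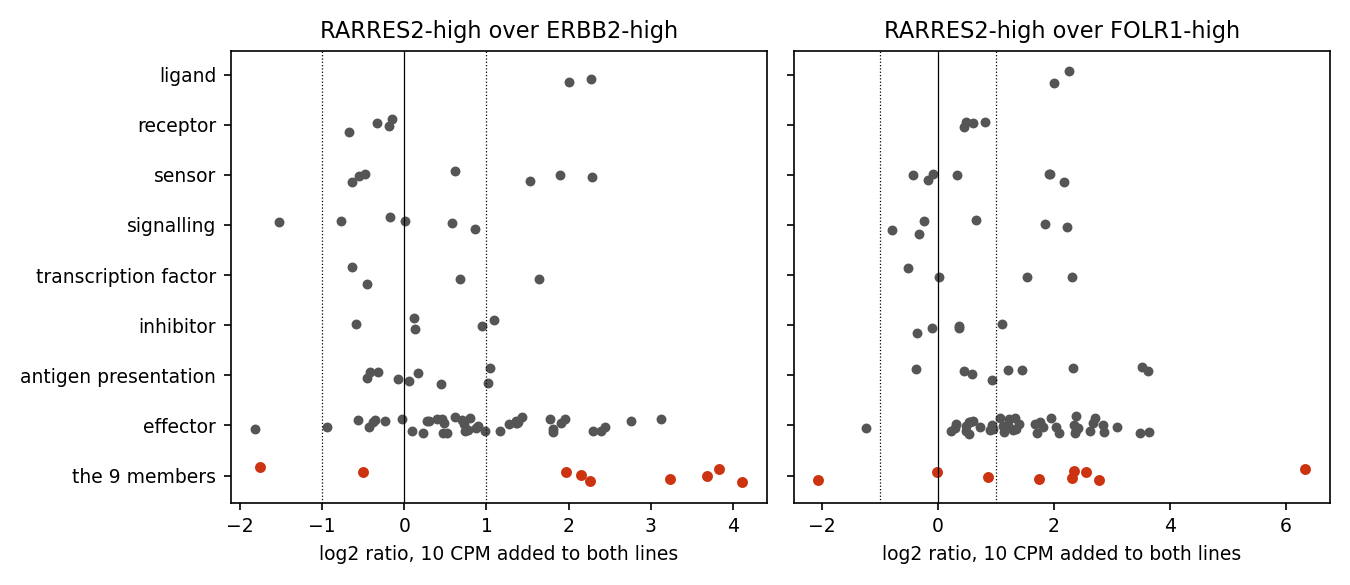
Log2 ratio (10 CPM added to both lines) of the RARRES2-high line over the ERBB2-high line and over the FOLR1-high line for the 80 pathway entries by role (grey) and the 9 members (red); dotted lines mark 2-fold. Of the pathway entries, 26 lie right of the upper limit in the first panel and 44 in the second, and IFI27 is the member farthest right in both.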

How the data were processed

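The authors deposited a matrix of estimated counts per transcript and barcode for the PromethION library. Per the submitters' processing notes, the build was GRCh38 and Cell Ranger 6.0.1 was used. For the long reads, the sources used here do not name an aligner or its version, or say whether molecular identifiers were collapsed. Gene sums were whole within 1e-06 for 100% of values, while 39.8% of matrix entries were. Estimated counts were summed per gene entry and rounded, with Python 3.11.15, numpy 2.4.6 and scipy 1.17.1. Library depth was 13052893 counts over 2462 barcodes, with a median of 4914.5.

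Levels carry exact Poisson, shares exact Clopper-Pearson and ratios exact conditional 95% intervals, all covering counting error only. With 1 library, no test was made. Calling and overdispersion were tested on simulated data. Doublets were left out only through the 75% rule; Scrublet (scanpy 1.11.5, expected rate 2%) called 77 barcodes and was an alternative. Transcript identifiers and exons are those of GENCODE release 29.

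All 9 members are named, the 20 called pathway genes with the largest ratio between lines, ligands and receptors by role, and per line the 5 non-member genes with the highest r among those with a mean of at least 0.1 counts. Members and lists were chosen with earlier results of these data known. The genes of the IFNB1 barcode, beyond members and pathway ligands, were named after their values were seen. CD68, which shares an entry with other genes, was left out of the marker sum. Positions in the text count from 1.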

Additional observations from a re-analysis of the deposited data

How the results depend on the processing

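No paired analysis was possible because the study had a single library per platform. The counts of members called between lines were recomputed with 10 other settings, and 1 count changed beyond 1.5 times: at a ratio limit of 3, 1 member rather than 2 was called higher in the FOLR1-high than in the ERBB2-high line. Of the members' 216 recomputed log2 ratios, 215 kept their direction where called and their side of the limit, and IFITM1 in the RARRES2-high over the FOLR1-high line passed it at a marker share of 90% (1.04). Pathway counts moved more. Leaving mitochondrial and ribosomal protein genes out of the total gave 2 higher in FOLR1-high over RARRES2-high and 5 over ERBB2-high. An offset of 1 CPM gave 5 higher in ERBB2-high over RARRES2-high, 40 in ERBB2-high over FOLR1-high and 5 the other way. A ratio limit of 1.5 gave, in ERBB2-high over RARRES2-high, FOLR1-high over RARRES2-high, FOLR1-high over ERBB2-high and ERBB2-high over FOLR1-high, 7, 2, 7 and 40. A limit of 3 gave 1, 0, 0 and 11 in the same order and 15 in RARRES2-high over ERBB2-high.

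Members with overdispersion of at least 1 in the RARRES2-high line dropped from 4 to 2 without the 1% of cells with the most member counts and without the IFNB1 barcode, an alternative chosen after seeing the data. In the FOLR1-high line 1 rather than 0 passed with at least 2000 counts per barcode. The median r of member pairs stayed within 0.05 under ranks and without the IFNB1 barcode. Of 54 recomputed detection shares, 48 lay outside the interval of the value thinned to 2000 counts, and 17 of 51 transcript shares lay outside theirs under whole estimates, purer lines or without the IFNB1 barcode. Depth limits the IFIT genes, with 14 to 62 counts each in the ERBB2-high and FOLR1-high lines.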

Other observations

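The member levels can also be read from barcodes that no line holds. The summed members were at 3276 CPM in the 243 mixed barcodes and at 2753 CPM in the 333 barcodes under 1000 counts, the latter with 27.4% mitochondrial counts. Both values lie between those of the RARRES2-high and the other lines.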
